A study of Mus musculus with 6 samples.

Results

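Chromatin regulators, 44 genes in all, were compared between early thymic progenitors of 2 genotypes. They were taken by name as the Polycomb, DNA methylation, deacetylase, SWI/SNF, NuRD, Trithorax and acetyltransferase genes, and each was read from the brightest of the probe sets that the array annotation gives to that symbol alone, brightness being the mean of all 6 arrays. This left 43 of the 44 genes, out of 18193 genes measured on the array. Ash1l, a Trithorax-group methyltransferase, was not analysed here. RNA was measured on Mouse Genome 430 2.0 arrays in thymocytes of the DN1 stage, sorted as Lin-CD44+CD25-kit+, from C57Bl/6 mice of 10 weeks. The arrays comprised 3 of Tcf1-/- mice, which lack a transcription factor of the TCF/LEF family that is needed early in the T lineage, and 3 of Tcf1-/+ mice, whose genotype is entered as wild type in another field of the labels. The sources used here give neither the make of the allele nor the number of animals behind each array, so that p-values measure the spread between these arrays. All values below are log2 levels of a probe set, and a difference is positive where Tcf1-/- had the higher mean.

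Polycomb repressive complex 2 (PRC2) places methyl groups on lysine 27 of histone H3, and Polycomb repressive complex 1 (PRC1) binds that mark and ubiquitinates histone H2A. DNA methyltransferases and TET oxygenases write and remove cytosine methylation. SWI/SNF and NuRD are remodelling complexes that use ATP to move nucleosomes, NuRD together with histone deacetylases, while Trithorax proteins and acetyltransferases are associated with active genes. In thymic progenitors the repressive ones among these systems are known for keeping stem-cell and alternative-lineage genes in check while the T-cell programme is laid down.

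Over all 45037 probe sets, limma with Benjamini-Hochberg adjustment called 0 (0%) between the genotypes at an adjusted p of 0.05, and 0 of the 43 chromatin regulators were called. The lowest adjusted p was 0.315 over all probe sets and 0.666 among the regulators. At an unadjusted p under 0.05 from limma there were 2917 probe sets, and unmoderated pooled-variance tests also called 0 after adjustment. Among genes with 1 probe set each, 6.78% had an unadjusted p under 0.05. Among those with a mean level of 8 or more, a background described below, it was 8.88%. Of the 43 regulators 5 had such a p (11.6%). These were Mbd2, Cbx7 and Arid1a with higher means in Tcf1-/- (3 members, against 3.38% of all genes in that direction), and Ezh2 and Mta1 with lower means (2 members, against 3.4%). The same 5 were the members whose genotypes did not overlap, where 12.2% of all genes did not overlap, 7.22% with Tcf1-/- above and 4.94% with Tcf1-/+ above. A difference of at least 1 log2 unit was found for 2 members (4.65%), Cbx7 and Dnmt3b, against 9.13% of all genes.

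Lower means in Tcf1-/- prevailed among the members. Of the 43, 15 had a higher mean (34.9%) and 28 a lower one, where 54.3% of all genes had a higher mean. The median difference was -0.18, against 0.04 over all genes. When single arrays were left out, the median lay between -0.33 and -0.0081, and 13 to 20 members had a higher mean. Since members were brighter than most genes, a second background was taken at a mean level of 8 or more, a limit set after the values were seen. There, 10 of 34 members had a higher mean (29.4%), against 44.5% of 5054 genes, with medians of -0.18 and -0.06. Every member had means above the background level of 5.21 in each genotype.

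The precision of these arrays set what could be seen. The 95% confidence interval of a member's difference extended by a median of 0.96 log2 units to either side, from 0.46 for Phf19 to 2.99 for Ring1. For 12 members the interval on the brightest probe set lay within 1 log2 unit of 0. A 2-fold difference in one direction or the other was not excluded for the remaining members.

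**Figure D1:**
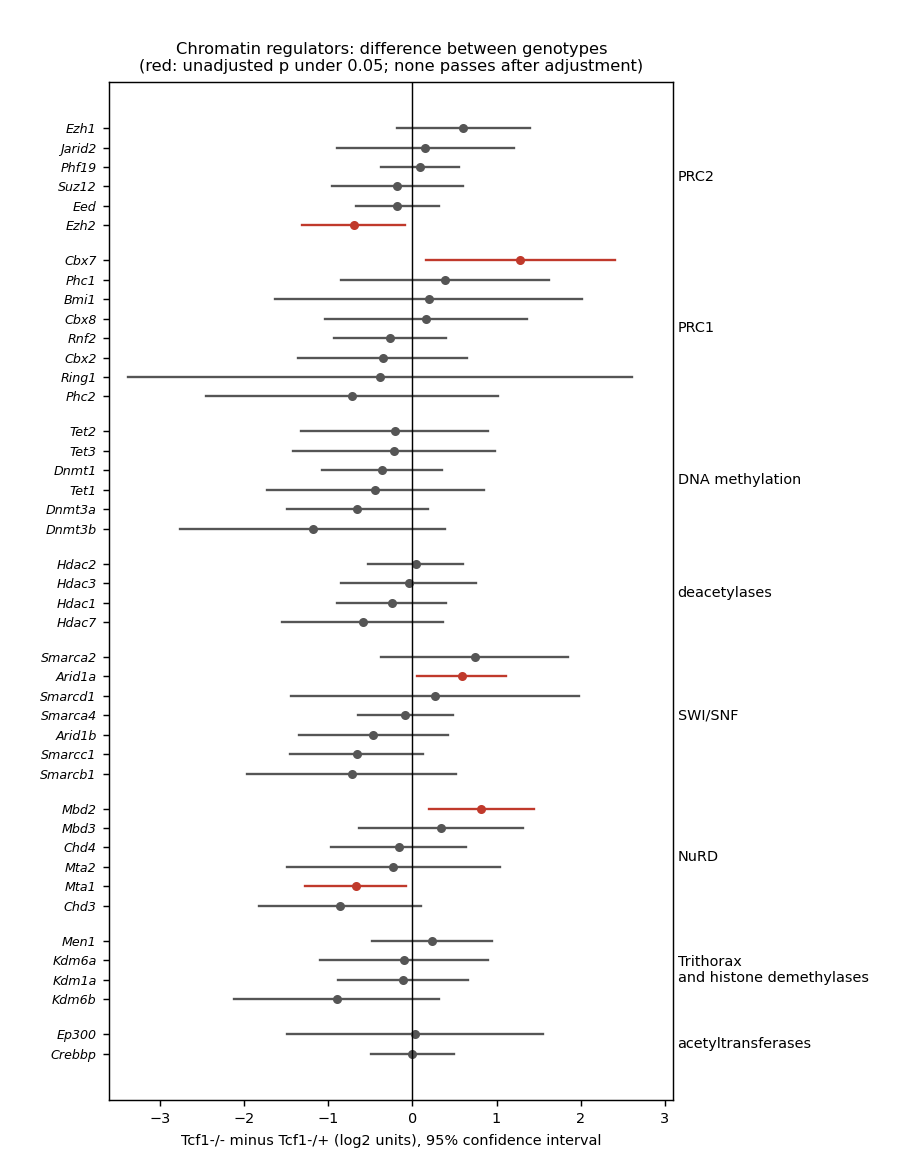
Difference between genotypes for each of the 43 chromatin regulators (x axis, log2 units, Tcf1-/- minus Tcf1-/+), as points with 95% confidence intervals from limma, grouped by complex; red marks the 5 members with an unadjusted p under 0.05. The intervals of 38 members include 0, and those of Ring1 and Bmi1 are among the widest.

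Tcf7, the gene that encodes Tcf1, was not analysed here, so the genotype labels were not checked on it. Tcf1-/- replicate 2 correlated with the other arrays between 0.870 and 0.893 over all probe sets, and the other 5 among themselves between 0.913 and 0.933. It was the lowest of the 6 arrays for 16 of the 43 regulators. On the 3'-to-5' control probe sets of Tfrc, a sign of RNA quality and amplification, the 3' minus the 5' log2 value was 0.055 on this array and -1.08 to -0.62 on the other 5, while for Gapdh it was 2.78, inside the range of 1.74 to 2.89 over the others. The early thymic progenitor markers Kit, Cd44, Flt3, Notch1, Cd34, Hhex, Lyl1, Mef2c, Bcl11a and Spi1 were all above background, and 8 of 10 had lower means in Tcf1-/-, with a centred mean (each gene's own mean over the 6 arrays subtracted) of -0.65 to -0.024 against 0.24 to 0.48 in Tcf1-/+. Of 12 natural killer and innate lymphoid markers 10 had higher means in Tcf1-/-, and the list's centred mean ran from 0.58 to 1.26 in Tcf1-/- and from -1.11 to -0.56 in Tcf1-/+. Klrd1 and Nkg7 of that list had lower means, with differences of -1.49, without overlap, and -0.67, with overlap. Of the same list Ncr1, which marks natural killer cells, was below background in each genotype, and Zbtb16 differed by only 0.013. The T-lineage list of 10 genes had a centred mean of -0.39, -0.27 and -0.026 in Tcf1-/- against 0.17, 0.50 and 0.013 in Tcf1-/+, without overlap. It held 7 genes lower and 3 higher, Thy1 among the latter, and of the lower ones Ptcra was below background in each genotype. The erythroid list, of which the globin gene Hba-a1 was below background in each genotype, stood at 0.80, -0.49 and 1.20 in Tcf1-/- and at -1.35, -1.01 and 0.85 in Tcf1-/+. The myeloid list likewise stood at 0.22, -0.37 and 1.29 in Tcf1-/- and at -0.93, -1.05 and 0.84 in Tcf1-/+, so that for both lists Tcf1-/+ replicate 3 was high and the other Tcf1-/+ arrays were the lowest. The B-lineage, dendritic and stromal lists overlapped between genotypes. All 17 genes of the cell cycle list were lower on average in Tcf1-/-. Their centred mean was 0.24, -0.996 and -0.16 in Tcf1-/- against 0.41, -0.027 and 0.54 in Tcf1-/+, with overlap. Xist, the RNA of the inactive X chromosome, was at 5.12 on Tcf1-/+ replicate 2 and at 12.87 to 13.45 on the other 5, while the Y-linked gene Kdm5d was at 9.82 and 10.34 on Tcf1-/- replicates 2 and 3, at 10.93 on Tcf1-/+ replicate 2 and at 4.29 to 5.40 on the other 3. Both were thus high on Tcf1-/- replicates 2 and 3, and the labels used here do not give the sex of the animals. The part of these features in the differences below was not tested beyond the values given.

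The start regions of 4 members are shown because these members carried the non-overlapping or largest differences and have 1 window each in the RefSeq promoter table of build GRCm38.p6. Each runs from 250 bases before to 50 bases after the annotated start, in the direction of the gene. Capitals mark CTTTGAT or CTTTGTT on either strand, letters that match the core recognised by TCF/LEF factors, the family of Tcf1. The Ezh2 window lies at chr6:47594981-47595280 on the minus strand, that of Cbx7 at chr15:79932597-79932896 on the minus strand, that of Mta1 at chr12:113098028-113098327 on the plus strand and that of Dnmt3b at chr2:153649199-153649498 on the plus strand.
Ezh2: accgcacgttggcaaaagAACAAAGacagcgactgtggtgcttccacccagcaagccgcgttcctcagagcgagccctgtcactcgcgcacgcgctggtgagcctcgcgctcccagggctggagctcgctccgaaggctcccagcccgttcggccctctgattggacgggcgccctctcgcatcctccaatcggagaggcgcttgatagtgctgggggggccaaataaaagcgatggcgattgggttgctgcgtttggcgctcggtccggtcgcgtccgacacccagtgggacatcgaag
Cbx7: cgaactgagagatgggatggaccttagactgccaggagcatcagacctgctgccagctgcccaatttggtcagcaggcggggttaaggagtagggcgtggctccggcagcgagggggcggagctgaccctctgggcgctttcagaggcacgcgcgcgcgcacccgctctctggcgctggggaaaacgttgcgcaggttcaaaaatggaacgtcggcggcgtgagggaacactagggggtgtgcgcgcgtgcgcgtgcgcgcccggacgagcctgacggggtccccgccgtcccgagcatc
Mta1: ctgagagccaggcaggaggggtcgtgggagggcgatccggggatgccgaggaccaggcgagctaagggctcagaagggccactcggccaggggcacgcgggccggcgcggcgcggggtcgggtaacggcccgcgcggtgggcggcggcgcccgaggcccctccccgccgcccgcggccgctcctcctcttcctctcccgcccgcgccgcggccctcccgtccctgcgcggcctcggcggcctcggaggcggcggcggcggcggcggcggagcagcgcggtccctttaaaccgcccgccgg
Dnmt3b: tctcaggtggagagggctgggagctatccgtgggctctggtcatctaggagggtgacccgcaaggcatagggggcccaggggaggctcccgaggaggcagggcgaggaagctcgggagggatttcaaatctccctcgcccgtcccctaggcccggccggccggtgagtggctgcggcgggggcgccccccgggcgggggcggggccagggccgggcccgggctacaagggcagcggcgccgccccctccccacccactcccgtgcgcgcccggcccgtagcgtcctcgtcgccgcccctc
The Ezh2 window held 1 match, CTTTGTT on the opposite strand, starting at position -232 from the annotated start. The Cbx7, Mta1 and Dnmt3b windows held 0, as did both windows of Arid1a. Windows were found for 37 of the 43 members, and 4 of these (10.8%) held a match in at least 1 window, namely Ezh2, Kdm6a, Phc1 and Phc2. Counted by window, it was 4 of 51 (7.84%), against 9.33% of all 32851 windows in the table and 8.06% of the 21262 windows of protein-coding genes. A match describes letters and is not a site, and its frequency at the members was close to that at all genes. The member windows were rich in CG dinucleotides, the substrate of DNA methylation, with a median of 29 a window, against 13 in the windows of protein-coding genes.

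PRC2 was measured with 6 members, of which 3 had higher and 3 lower means, with a median difference of -0.04. Ezh2, the main H3K27 methyltransferase of dividing cells, was at 10.08, 10.12 and 9.43 on Tcf1-/- replicates 1 to 3 and at 10.57, 10.64 and 10.51 on the Tcf1-/+ replicates. All 3 Tcf1-/- arrays lay below all 3 Tcf1-/+ arrays, and replicate 3 of Tcf1-/- was farthest from them. The means were 9.88 ± 0.38 (SD, n = 3) and 10.57 ± 0.07 (SD, n = 3), a difference of -0.69 with a 95% interval from -1.31 to -0.083, or 1.62-fold lower in Tcf1-/- (limma adjusted p = 0.731). Without Tcf1-/- replicate 3 the difference was -0.47, and over 15 alternative settings it lay between -0.82 and -0.47. An unadjusted p under 0.05 held in 9 of the 15. It was lost without Tcf1-/- replicate 3 and at each omission of a single Tcf1-/+ array. With the Y-linked level as covariate and with only probe sets above background it was lost too (limma unadjusted p = 0.067 and 0.068). Beside the Ezh2 difference stand the cell cycle genes above, of which Top2a and Plk1 differed by -1.18 and -1.15 with no overlap between genotypes. Others of that list differed less, such as Pcna by -0.087, Mcm2 by -0.092 and Cdk1 by -0.13, each with overlap. The list's centred mean was lowest on Tcf1-/- replicate 2, at -0.996, where Ezh2 was the highest of the 3 Tcf1-/- arrays. A link between the list and Ezh2 was not tested.

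Ezh1, the other H3K27 methyltransferase, which is used more in resting cells, was at 8.79, 8.61 and 8.02 in Tcf1-/- and at 7.49, 8.33 and 7.78 in Tcf1-/+. Most Tcf1-/- arrays were the higher ones, but replicate 3 of Tcf1-/- lay below replicate 2 of Tcf1-/+. The difference was 0.61 (SE 0.32), with an interval of -0.19 to 1.40. Its 3 other probe sets gave 0.050, -0.47 and -0.17, the last of them below background in each genotype. Over the mean of its probe sets, the one below background included, the Ezh1 difference was 0.0028. The log2 ratio of Ezh2 to Ezh1 within an array differed by -1.30 between the genotypes, with SDs of 0.11 in Tcf1-/- and 0.39 in Tcf1-/+ and no overlap (exact two-sided permutation p = 0.1, the smallest that 3 against 3 arrays allow, and 0.6 adjusted over 12 pairs). The ratio used the brightest Ezh1 probe set alone, and the probe sets of Ezh1 did not share a direction.

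The other PRC2 genes lay closer to 0. Eed, the subunit that reads the H3K27 mark, differed by -0.18 with an interval of -0.67 to 0.32, and Suz12, the scaffold, by -0.18 with an interval of -0.96 to 0.60. The 5 other probe sets of Suz12 ranged from -0.74 to 0.10, and on 1 of them, at -0.58, the genotypes did not overlap. Jarid2, which recruits the complex, differed by 0.15 on its brightest probe set and by -0.82 on the next. Phf19, an accessory subunit that binds methylated H3K36, differed by 0.09, with the narrowest interval of all members, -0.38 to 0.55.

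Of 8 PRC1 members, 4 had higher and 4 lower means, with a median of -0.05. Cbx7, a chromodomain subunit that binds H3K27 methylation, was at 6.51, 7.51 and 7.71 in Tcf1-/- and at 6.38, 5.22 and 6.28 in Tcf1-/+. The genotypes did not overlap, though replicate 1 of each lay only slightly apart. The difference was 1.28 with an interval of 0.16 to 2.41, or 2.43-fold (limma adjusted p = 0.727), the largest positive difference among the members. It rested partly on Tcf1-/+ replicate 2, which was near background, and without that array it was 0.92 and no longer under an unadjusted p of 0.05. The same loss occurred without Tcf1-/- replicate 2 and without Tcf1-/- replicate 3. An unadjusted p under 0.05 held for Cbx7 in 8 of 15 alternative settings. The 2 other probe sets of Cbx7 differed by 0.17 and 0.25, and the mean of all 3 by 0.57.

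Ring1, Bmi1 and Phc2 had the largest spread between replicates of the 43 members. Ring1, an E3 ligase of the complex, was at 8.18, 5.25 and 9.51 in Tcf1-/- and at 6.44, 8.79 and 8.87 in Tcf1-/+, so that each genotype held an array far below the others. Its pooled SD was 1.82, against a median of 0.53 over the members. Bmi1, the subunit required for stem-cell renewal, was at 10.50 on Tcf1-/- replicate 1 and at 7.84 to 9.08 on the other 5 arrays. Its other probe set did not show that array as high. Rnf2, the second E3 ligase, differed by -0.26, Cbx2 by -0.35, Cbx8 by 0.16, and the Polyhomeotic genes Phc1 and Phc2 by 0.39 and -0.72. On the next brightest probe set of Rnf2 the difference was 0.53, of opposite sign, with overlap. On the dimmer probe set of Cbx2 the genotypes did not overlap, with a difference of -1.40. On the dimmer probe set of Phc2 the difference was 0.60, of opposite sign.

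**Figure D2:**
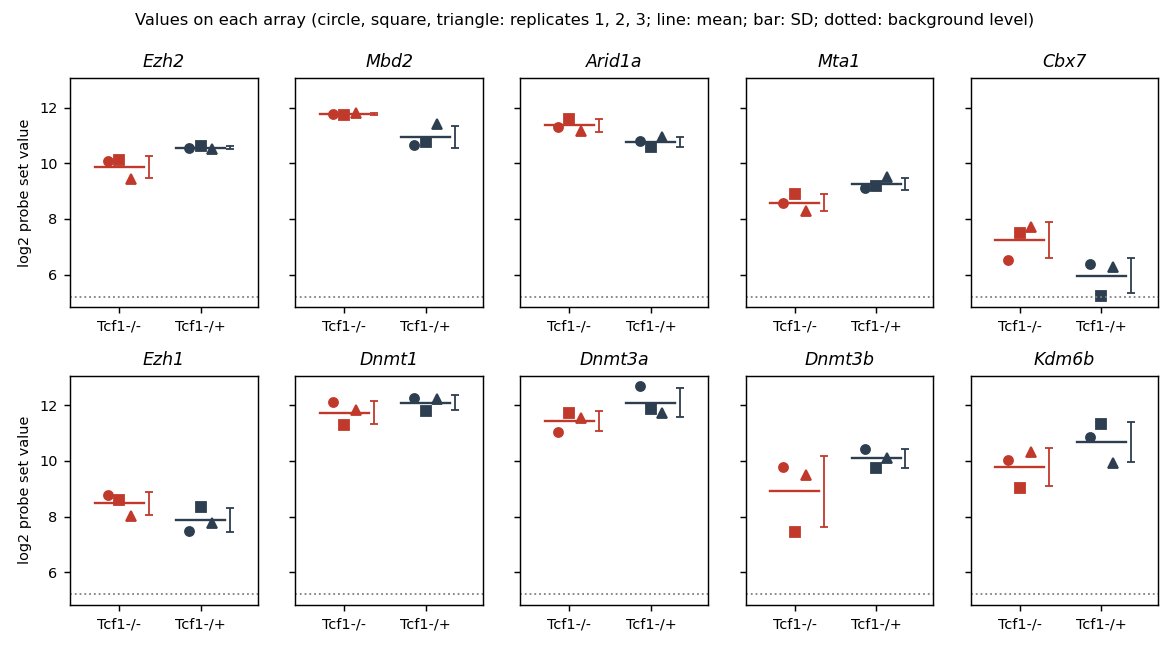
Log2 value on each array (y axis) for 10 chromatin regulators in Tcf1-/- (red) and Tcf1-/+ (dark), with the mean as a line, the SD as a bar and the background level of 5.21 dotted; circles, squares and triangles are replicates 1, 2 and 3. The genotypes do not overlap for the 5 genes of the upper row, and they overlap for the 5 of the lower row, where Dnmt3b is low on Tcf1-/- replicate 2.

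All 6 DNA methylation genes had lower means in Tcf1-/-, by 0.21 to 1.18 log2 units, with a median of -0.40, and none had an unadjusted p under 0.05. Their centred mean was -0.011, -0.69 and -0.063 in Tcf1-/- against 0.62, 0.13 and 0.015 in Tcf1-/+. The genotypes were separated by a narrow margin, and the extremes were replicate 2 of Tcf1-/- and replicate 1 of Tcf1-/+. When single arrays were left out, the median lay between -0.61 and -0.27. The lower levels lie beside those of the cell cycle genes, which were also lowest on Tcf1-/- replicate 2, and beside the Tfrc control value of that array. That array was likewise the lowest for the deacetylases (-0.50), the Trithorax and demethylase genes (-0.33) and the progenitor markers (-0.65). It was not the lowest for PRC2, PRC1, SWI/SNF, NuRD or the acetyltransferases. A link between these was not tested. Without that array the median of the DNA methylation genes was -0.29.

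Dnmt3b, a de novo methyltransferase chosen for its values, was at 9.77, 7.44 and 9.51 in Tcf1-/- and at 10.42, 9.76 and 10.10 in Tcf1-/+. Replicate 2 of Tcf1-/- was far below, and replicate 1 was level with the lowest Tcf1-/+ array, so that the genotypes overlapped. The difference was -1.18 (SE 0.64), with an interval of -2.75 to 0.39. Its dimmer probe set read 7.42, 7.19 and 7.58 in Tcf1-/- and 9.48, 8.87 and 8.44 in Tcf1-/+. There the 3 Tcf1-/- arrays lay together and below every Tcf1-/+ array, with a difference of -1.54, which was not called after adjustment.

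Dnmt3a, the other de novo enzyme, gave unlike answers on its 5 probe sets. On the brightest it was at 11.05, 11.74 and 11.55 in Tcf1-/- and at 12.70, 11.86 and 11.73 in Tcf1-/+, a difference of -0.65 (SE 0.34) with overlap. Of the 4 other probe sets, 2 had lower means, at -0.26 and -0.67, both without overlap, and 2 had higher means, at 0.85 without overlap and 0.50 with overlap. The direction for Dnmt3a thus depended on the probe set, and over the mean of all 5 the difference was -0.045. Without Tcf1-/+ replicate 1 the brightest gave -0.35. Dnmt1, which copies methylation onto new DNA strands, was at 12.11, 11.28 and 11.82 in Tcf1-/- and at 12.27, 11.79 and 12.24 in Tcf1-/+. The genotypes overlapped, and the difference was -0.36 (SE 0.29) on the brightest, with -0.36 and -0.37 on the 2 other probe sets. Without Tcf1-/- replicate 2 it was -0.13.

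The TET enzymes oxidise methylcytosine. Tet2 was at 9.20, 8.58 and 10.32 in Tcf1-/- and at 9.51, 9.75 and 9.47 in Tcf1-/+, so that the Tcf1-/- arrays lay on either side of the Tcf1-/+ arrays. The difference was -0.21 (SE 0.46), and it was 0.18 without Tcf1-/- replicate 2 and -0.69 without Tcf1-/- replicate 3. The other Tet2 probe set differed by -0.96 and the mean of both by -0.58, with overlap on each probe set. Tet3 differed by -0.22 and Tet1 by -0.44, and of the 3 other probe sets of Tet1, 2 had the opposite sign.

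The 4 deacetylases had a median difference of -0.14, which was -0.28 without Tcf1-/- replicate 1 and -0.0094 without Tcf1-/- replicate 2. Hdac1 was at 9.45, 8.75 and 9.34 in Tcf1-/- and at 9.21, 9.61 and 9.46 in Tcf1-/+, a difference of -0.25 with an interval of -0.89 to 0.40. Without Tcf1-/- replicate 2, the lowest array, it was -0.030. Hdac2, its close relative in the NuRD, Sin3 and CoREST complexes, differed by 0.04 with an interval of -0.52 to 0.60, and Hdac3, the NCoR enzyme, by -0.04. Hdac7, a class II enzyme prominent in thymocytes, was at 9.97, 8.87 and 9.71 in Tcf1-/- and at 10.65, 9.75 and 9.91 in Tcf1-/+. The genotypes overlapped by the margin between 9.97 and 9.75, and the difference was -0.59 (SE 0.39), or -0.27 without Tcf1-/- replicate 2 and -0.32 without Tcf1-/+ replicate 1. The dimmer Hdac7 probe set differed by -0.80 without overlap and was not called after adjustment.

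SWI/SNF was measured with 7 members, of which 3 had higher and 4 lower means, with a median of -0.08. That median was -0.25 over the mean of each gene's probe sets, and 0.0051 without Tcf1-/- replicate 2 and -0.22 without Tcf1-/- replicate 3. Smarca4, the BRG1 ATPase, was at 9.79, 9.65 and 10.13 in Tcf1-/- and at 9.69, 10.04 and 10.09 in Tcf1-/+. These overlapped closely, and the difference of -0.08 had an interval of -0.65 to 0.48. Smarca2, the alternative ATPase BRM, was at 10.35, 11.38 and 10.06 in Tcf1-/- and at 9.49, 10.52 and 9.57 in Tcf1-/+. In each genotype replicate 2 was the highest, and the difference was 0.74 (SE 0.46), with 0.37 on the other probe set and 0.35 without Tcf1-/- replicate 2. The ratio of Smarca4 to Smarca2 within an array differed by -0.82 with overlap (exact permutation p = 0.2).

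Arid1a, the DNA-binding subunit that defines the BAF form of the complex, was at 11.32, 11.61 and 11.17 in Tcf1-/- and at 10.81, 10.59 and 10.95 in Tcf1-/+. The genotypes did not overlap, and the difference was 0.59 with an interval of 0.055 to 1.12, or 1.50-fold (limma adjusted p = 0.738). Its dimmer probe set had the opposite sign, at -0.79, with overlap between genotypes. Over the mean of the 2 probe sets the difference was -0.10. An unadjusted p under 0.05 held for Arid1a in 8 of 15 alternative settings. Arid1b, which takes the place of Arid1a in other BAF complexes, differed by -0.46 on its only probe set. The ratio of Arid1a to Arid1b differed by 1.05 without overlap, though Tcf1-/- replicate 3 and Tcf1-/+ replicate 3 nearly met (exact permutation p = 0.1, adjusted 0.6). Of the core subunits, Smarcc1 differed by -0.66, Smarcb1 by -0.72 and Smarcd1 by 0.27 on the brightest probe set, and each overlapped. Other probe sets of Smarcc1 above background differed by 0.21, with overlap, and by -0.81, without overlap. The 2 other probe sets of Smarcb1 differed by -0.028 and -0.094.

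NuRD, counted without its deacetylases, had 6 members and a median of -0.19. It held 2 of the 5 members without overlap, in opposite directions. Mbd2, which binds methylated DNA, was at 11.78, 11.75 and 11.80 in Tcf1-/- and at 10.68, 10.78 and 11.42 in Tcf1-/+. The Tcf1-/- arrays were almost equal, and Tcf1-/+ replicate 3 came nearest to them. The difference was 0.82 with an interval of 0.20 to 1.44, or 1.76-fold, and it had the lowest p of all members (limma adjusted p = 0.666). The other probe set of Mbd2 differed by 0.46, and the difference lay between 0.64 and 1.05 over 15 alternative settings. Mbd3, which replaces Mbd2 in other NuRD assemblies and binds methylated DNA weakly, differed by 0.34, and the ratio of the pair by 0.47 (exact permutation p = 0.5).

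Mta1, a scaffold of NuRD, was at 8.57, 8.90 and 8.29 in Tcf1-/- and at 9.11, 9.17 and 9.50 in Tcf1-/+. All Tcf1-/- arrays were lower, by 0.67 log2 units on average (difference -0.67, interval -1.27 to -0.077), or 1.60-fold (limma adjusted p = 0.733). Its dimmer probe set differed by 0.21, and the mean of both by -0.23. An unadjusted p under 0.05 held for Mta1 in 6 of 15 alternative settings. Mta2, the related scaffold, differed by -0.23. Chd4, the NuRD ATPase, was at 10.96, 11.94 and 11.01 in Tcf1-/- and at 11.52, 11.66 and 11.22 in Tcf1-/+. Replicate 2 of Tcf1-/- was above and the others below all Tcf1-/+ arrays, and the difference was -0.16 (SE 0.33). Chd3, the alternative ATPase, differed by -0.86 (SE 0.39) on its only probe set, with replicate 1 of Tcf1-/- just above replicate 3 of Tcf1-/+.

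Of the Trithorax group and the histone demethylases 4 were measured, with a median of -0.11. The median turned to 0.074 without Tcf1-/+ replicate 1, was -0.38 without Tcf1-/- replicate 3, and was -0.37 over the mean of each gene's probe sets. Kdm6b, an H3K27 demethylase that opposes PRC2, was at 10.02, 9.02 and 10.34 in Tcf1-/- and at 10.86, 11.31 and 9.91 in Tcf1-/+. The genotypes overlapped through Tcf1-/+ replicate 3, and the difference was -0.90 with an interval of -2.11 to 0.31. Leaving out 1 array moved it between -1.29 (without Tcf1-/+ replicate 3, the one array of the 6 whose omission brought it under an unadjusted p of 0.05) and -0.52 (without Tcf1-/- replicate 2), and it was -0.59 without Tcf1-/+ replicate 2. Its 2 other probe sets differed by 0.15 and -0.12, and the mean of all 3 by -0.29. The erythroid and myeloid marker lists were high on Tcf1-/+ replicate 3, and their part in this was not tested. Kdm6a, the X-linked demethylase of the same mark, which escapes X inactivation, was at 9.12, 8.79 and 9.79 in Tcf1-/- and at 9.83, 8.67 and 9.51 in Tcf1-/+. On this brightest probe set the lowest level was on Tcf1-/+ replicate 2, the array with Xist near background. The difference was -0.10 (SE 0.41), or 0.074 when the mean of the Y-linked genes entered the fit. The 3 other Kdm6a probe sets differed by -1.39, 0.23 and -0.75, and the mean of all its probe sets by -0.50. They were lowest on Tcf1-/- replicate 1, Tcf1-/+ replicate 2 and Tcf1-/- replicate 3, in that order. Kdm1a, an H3K4 demethylase of the CoREST complex, differed by -0.11. Men1, a partner of the MLL methyltransferases, differed by 0.23, with the opposite sign on its 2 other probe sets, where 1 at -1.11 did not overlap.

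The acetyltransferases Ep300 and Crebbp differed by 0.04 and less than 0.01. Ep300 was at 8.49, 9.08 and 6.98 in Tcf1-/- and at 7.40, 8.41 and 8.64 in Tcf1-/+, so that its interval of -1.48 to 1.56 was wide. Crebbp was at 11.36, 11.44 and 11.50 in Tcf1-/- and at 11.26, 11.37 and 11.68 in Tcf1-/+, with an interval of -0.49 to 0.49. The brightest probe set of Crebbp thus bounded its difference to less than 2-fold, while that of Ep300 did not. The bound did not hold over all Crebbp probe sets. On the dimmest of 3 others, still above background, the difference was -1.26 without overlap, with an interval of -2.16 to -0.35.

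**Figure D3:**
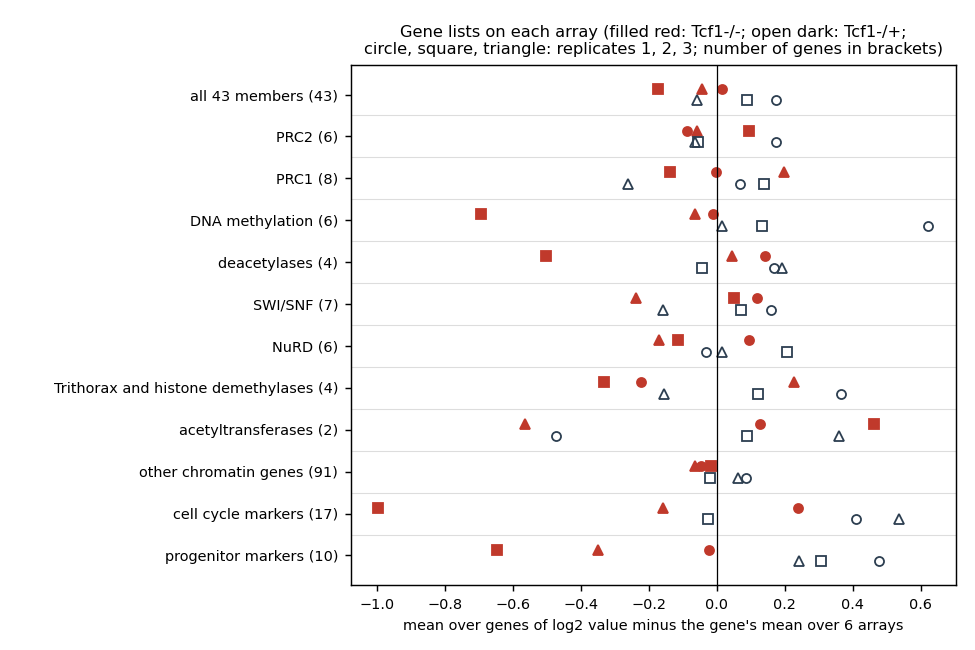
Mean over the genes of each list of the log2 value minus the gene's own mean over 6 arrays (x axis), with 1 symbol for each array (filled red Tcf1-/-, open dark Tcf1-/+; circles, squares and triangles are replicates 1, 2 and 3). DNA methylation genes separate the genotypes narrowly, while the other complexes overlap. Tcf1-/- replicate 2 is the lowest array for the DNA methylation genes, the deacetylases, and the Trithorax and demethylase genes. The same holds for the cell cycle and progenitor markers.

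Among the 12 pairs of related subunits, the ratio within an array did not overlap between genotypes for 2, Ezh2 to Ezh1 and Arid1a to Arid1b, and 0 pairs passed after adjustment. The design could not give an exact p below 0.1 for any of them, since a share of 0.1 of the 20 splits separates the arrays fully. Both ratios used a brightest probe set, of Ezh1 and of Arid1a, that the gene's other probe sets did not bear out. Over the mean of its probe sets, including a dim one below background, Ezh1 differed by 0.0028. Arid1a differed by -0.10 over the mean of its own. Ratios of Rnf2 to Ring1, Phc1 to Phc2 and Dnmt3a to Dnmt3b were among the most scattered, with SDs within Tcf1-/- of 2.10, 1.54 and 1.57.

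**Figure D4:**
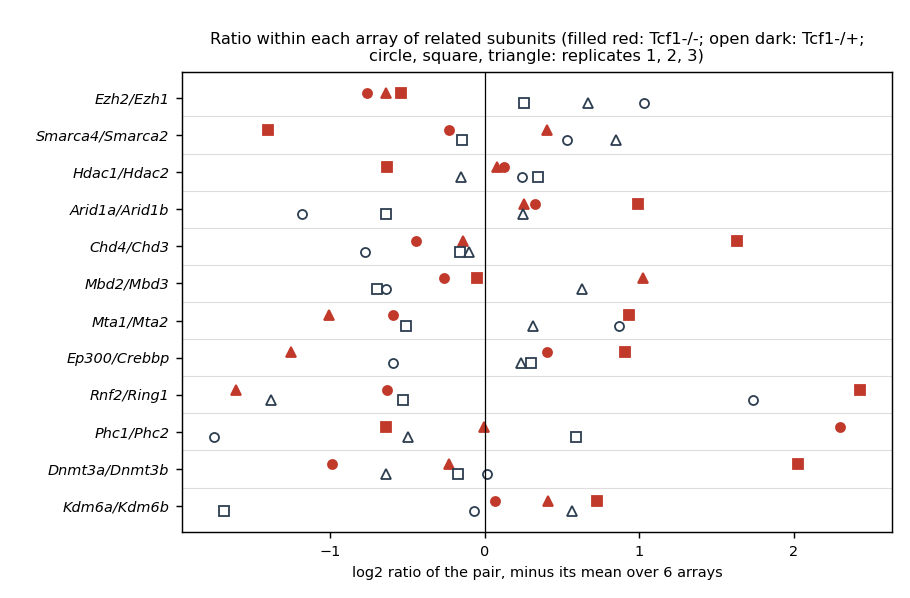
Log2 ratio of the paired probe sets on each array, minus the pair's mean over the 6 arrays (x axis), for 12 pairs of related subunits (filled red Tcf1-/-, open dark Tcf1-/+; circles, squares and triangles are replicates 1, 2 and 3). The ratio of Ezh2 to Ezh1 is below 0 on every Tcf1-/- array and above 0 on every Tcf1-/+ array.

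Other genes of the same complexes, 91 measured, gave 39 higher and 52 lower means, with a median of -0.13, and 0 passed after adjustment. At an unadjusted p under 0.05 there were 7 (7.69%, against 6.78% of all genes), 2 higher and 5 lower. Kdm4a, a demethylase of H3K9 and H3K36, was at 9.04, 9.42 and 9.41 in Tcf1-/- and at 7.74, 8.28 and 7.55 in Tcf1-/+. Its genotypes were well apart, with a difference of 1.43 (SE 0.27). Hdac6, a cytoplasmic deacetylase of tubulin, differed by 2.43 (SE 0.56) without overlap.

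Lower in Tcf1-/- were Asxl1, a partner of the H2A deubiquitinase Bap1, and Brd9, a subunit of the non-canonical BAF complex. Asxl1 was at 9.22, 8.83 and 9.15 in Tcf1-/- and at 10.08, 10.00 and 9.87 in Tcf1-/+, a difference of -0.92 (SE 0.20). Brd9 differed by -1.31 (SE 0.30), also without overlap. Mta3, the third NuRD scaffold, differed by -1.24, the acetyltransferase gene Kat8 by -1.22 and Uhrf1, which guides Dnmt1 to newly copied DNA and rises with division, by -0.82, and these 3 overlapped. The lowest adjusted p of these 7 was 0.441 (limma), for Kdm4a.

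Different probe sets of a member could disagree in sign, and the share over all genes was not taken. Of the 32 members with several probe sets, 14 had the opposite sign on at least 1 of the others. For Smarcd1, counted among these, the opposite probe set was below background in each genotype. The remaining 11 members had 1 probe set. Of the 5 members without overlap, Cbx7 and Mbd2 kept the sign on every other probe set, Arid1a and Mta1 did not, and Ezh2 had no other.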

How the data were processed

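The series' value table holds 1 log2 value per probe set for each of 6 arrays, which the authors deposited. Their method of summary and normalization was not given in the sources used here, and the scale was taken from the values. The RNA, about 3 ng from 1000 cells per the labels' protocols, was amplified before labelling. Values were used as deposited. After removal of 64 control probe sets, 45037 were tested. The 95th percentile of 27 control probe sets for bacterial transcripts, 5.21, served as the background level. Arrays have no read depth, and their number limits the precision.

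Groups came from the titles. Genotypes were compared over all 6 arrays by two-sided moderated tests (limma 3.58.1, R 4.3.3), and p-values were adjusted by Benjamini-Hochberg over all tested probe sets. The annotation gave 1 symbol to 34945 probe sets, and genes were named from these alone. The fit was tested on simulated data. The members, gene lists and tests were chosen with earlier results of these data known. Per-array values were given for members with an unadjusted p under 0.05 or no overlap, for 13 core enzymes, and, chosen after their values were seen, for Dnmt3b, Ring1, Bmi1 and Crebbp. Of the other genes of each complex, up to 4 with an unadjusted p under 0.05 were named. Promoter windows came from RefSeq and were searched for CTTTGAT and CTTTGTT on both strands. The alternatives were a replicate block, quantile normalization, a filter and a floor at background, the mean of a gene's probe sets, array weights, an intensity trend, the Y-linked level as covariate, unmoderated tests and leaving out each array.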

Additional observations from a re-analysis of the deposited data

How the results depend on the processing

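Over 15 alternatives, 6 of which left out 1 array, 0 probe sets and 0 chromatin regulators were called, and the lowest adjusted p of a regulator was 0.514. Members at an unadjusted p under 0.05 numbered 3 with the replicate block, 2 with only probe sets above background, 3 with the mean of all probe sets of a gene and 3 with the Y-linked level as covariate, against 5, and 1 to 6 when arrays were left out. These were partly other genes. They were Ezh2, Smarca2 and Mbd2 with the block, Cbx7 and Mbd2 above background, Ezh2, Dnmt3b and Hdac7 with the mean of probe sets, and Cbx7, Arid1a and Mbd2 with the covariate. Without Tcf1-/+ replicate 2 Ezh1 alone had such a p, and without Tcf1-/+ replicate 3 it was Cbx7, Smarcb1, Arid1a, Chd3, Mbd2 and Kdm6b. Members without overlap numbered 7 to 12 when arrays were left out, where fewer arrays overlap less often. Members with a higher mean in Tcf1-/- numbered 12 to 20. The median difference of the members was -0.067 with array weights and lay between -0.33 and -0.0081 when arrays were left out. That of PRC1 was 0.14 with array weights, -0.27 with the Y-linked level as covariate and -0.16 to 0.23 when arrays were left out, and that of NuRD lay between -0.38 and 0.015 when arrays were left out. In the same way PRC2 lay between -0.12 and 0.047, SWI/SNF between -0.22 and 0.0051, the deacetylases between -0.28 and -0.0094, the Trithorax and demethylase genes between -0.38 and 0.074 and the acetyltransferases between -0.22 and 0.30, so that of the complexes the sign held for the DNA methylation genes and the deacetylases. Of 17 named members 11 kept their sign throughout. The sign turned for Arid1a with the mean of its probe sets (-0.10), for Ep300 with array weights (-0.13) and for Kdm6a with the Y-linked level as covariate (0.074). With arrays left out, Ep300 lay between -0.41 and 0.64, Kdm6a between -0.44 and 0.14, Tet2 between -0.69 and 0.18, Smarca4 between -0.22 and 0.023 and Chd4 between -0.48 and 0.010. The cause of these changes was not tested. The labels do not say whether arrays of the same replicate number were paired. Deviations of same-numbered arrays correlated at 0.030, 0.045 and 0.012, and not every array correlated best with its own number. With so few arrays these values cannot decide whether a pairing exists. Every member had a mean above background in each genotype, but single arrays came close to the level of 5.21, with Cbx7 at 5.22 on Tcf1-/+ replicate 2 and Ring1 at 5.25 on Tcf1-/- replicate 2.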
